A study of Mus musculus with 12 samples.

Results

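The transcripts of 10 genes of extracellular matrix turnover were followed through 4T1 mouse mammary tumour cells, a line that spreads to the lung. They were taken by gene symbol from a table of 22880 genes: the matrix metalloproteinases (MMPs) Mmp3, Mmp10, Mmp13, Mmp9 and Mmp14, the ADAMTS proteinases Adamts1 and Adamts4, and the tissue inhibitors of metalloproteinases Timp1, Timp2 and Timp3. All 10 had a row, and 9 of them passed the filter on low counts. Timp3 did not.

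RNA was sequenced from 4 groups of 3 libraries, all of 4T1 cells. MYBup cells carried a pcDNA3-mMyb plasmid that overexpresses mouse Myb, a transcription factor gene, and have a low activity in seeding the lung per the labels. Mock cells carried the pcDNA3.1 plasmid and have a normal lung activity. Lung3 cells were not transfected, had been passaged 3 times through lungs and have a high lung activity. The wt cells were neither transfected nor passaged and have a normal lung activity. Whether the transfected lines are pools or clones is not stated, so an effect of Myb and a difference between lines cannot be told apart. Whether the 3 libraries of each group stem from separate cultures is not stated either, so p-values cover only the spread among the libraries at hand, which may be technical.

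MMPs are secreted or membrane-bound zinc proteinases that are made as inactive precursors and together can cut most components of the extracellular matrix. ADAMTS enzymes are related secreted proteinases, several of which cut large proteoglycans such as versican and aggrecan. TIMPs are small secreted proteins that block the active site of these enzymes, each with its own range of targets. In tumours, transcripts of these genes can come from the tumour cells or from stromal and immune cells.

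Libraries held between 8912989 counts (lung3 replicate 2) and 24745660 counts (wt replicate 2). Levels are TMM-scaled CPM, the count of a gene relative to the library's total, and per-length levels are CPM per kilobase of merged exon. A gene was called where edgeR's quasi-likelihood adjusted p was under 0.05. Myb lay between 39.3 and 42.9 CPM in MYBup libraries and between 4.49 and 6.80 CPM in mock libraries. In lung3 libraries it lay between 2.22 and 3.13 CPM, and in wt libraries between 4.27 and 5.75 CPM. It was called lower in lung3 than in wt (log2 fold change -0.89, SE 0.19, adjusted p = 0.0159). The 8 markers of 4T1 cells, such as Krt8, summed to between 2560 and 3410 CPM in all libraries, but single markers moved. In mock against wt 3 were called higher and 4 lower, against 18.0% and 17.9% of all tested genes. In MYBup against wt 2 were higher and 4 lower, against 19.4% and 18.7%. Krt14 was higher in MYBup than in mock (log2 fold change 2.19, SE 0.38, adjusted p = 0.00109) and in lung3 than in wt (2.21, SE 0.29, adjusted p = 0.00104). Krt7 was lower in MYBup than in mock (-0.80, SE 0.11, adjusted p = 0.00018). Of the 8 leukocyte markers, Adgre1 had 0 counts throughout and Cd68 made up most of the sum. That sum was 8.43 to 8.46 CPM in lung3, against 4.83 to 6.52 CPM in wt, and 3.62 to 4.64 CPM in MYBup, against 3.99 to 6.77 CPM in mock libraries. Of the 8 fibroblast markers, Lum and Thy1 had 0 counts, and only Pdgfra exceeded 1 CPM in any group. Their sum, nearly all Pdgfra, was 38.7 to 48.6 CPM in MYBup and 36.9 to 49.0 CPM in mock, and 15.9 to 21.7 CPM in lung3 and 21.8 to 30.4 CPM in wt libraries. Sftpc, Sftpb and Sftpa1, markers of lung epithelium, had 0 counts, and the 6 endothelial markers summed to at most 0.537 CPM. In bulk RNA, fewer cells of a type and less RNA per cell cannot be told apart.

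Mmp3, Mmp10 and Mmp13 belong to a cluster of 10 MMP genes on chromosome 9. The cluster spans bases 7272514 to 7699585 of GRCm38. The promoters of these 3 are shown because the genes belong to the same cluster and yet moved differently among the 4 groups. The stretches come from RefSeq (GRCm38.p6, plus strand) and run from 250 bases before to 50 bases after the annotated start. Capitals mark TGAGTCA, the binding motif of the transcription factor AP-1, searched on both strands (TGACTCA on the other), with no overlap between matches. The windows are chr9:7445572-7445871 for Mmp3, chr9:7502092-7502391 for Mmp10 and chr9:7272264-7272563 for Mmp13.
Mmp3: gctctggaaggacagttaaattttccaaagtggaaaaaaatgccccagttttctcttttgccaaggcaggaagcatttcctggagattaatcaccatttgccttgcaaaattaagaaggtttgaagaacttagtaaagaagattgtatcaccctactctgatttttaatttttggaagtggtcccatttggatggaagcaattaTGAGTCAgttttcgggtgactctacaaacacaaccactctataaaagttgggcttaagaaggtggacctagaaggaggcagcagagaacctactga
Mmp10: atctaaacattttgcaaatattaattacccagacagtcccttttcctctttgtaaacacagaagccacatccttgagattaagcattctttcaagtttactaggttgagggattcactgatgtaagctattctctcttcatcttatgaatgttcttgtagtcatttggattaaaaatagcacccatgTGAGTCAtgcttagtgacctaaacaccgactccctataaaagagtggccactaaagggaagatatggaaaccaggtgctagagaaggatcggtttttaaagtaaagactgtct
Mmp13: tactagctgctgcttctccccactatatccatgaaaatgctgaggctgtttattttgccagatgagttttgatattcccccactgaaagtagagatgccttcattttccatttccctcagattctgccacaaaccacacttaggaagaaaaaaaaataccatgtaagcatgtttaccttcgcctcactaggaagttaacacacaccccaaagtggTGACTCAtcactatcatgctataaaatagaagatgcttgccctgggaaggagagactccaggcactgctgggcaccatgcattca

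Each of these 3 promoters held 1 match, which began 46 bases before the annotated start in Mmp3, 63 bases before it in Mmp10 and 35 bases before it in Mmp13. RefSeq promoters were matched for 8 of the 10 genes, all but Mmp9 and Adamts4, and the other 5 held no TGAGTCA in this window. The motif was present in 5.2% of 32851 promoters of the same length. The binding motif of MYB proteins (TAACNG or CAACNG, either strand) was present in 49.7% of the promoters. It occurred once in the Mmp3 window, beginning 238 bases before the start, once in the Timp3 window and in none of the other 6. A match describes these letters and says nothing of binding.

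Per exon length, Mmp3 and Timp2 were the most abundant transcripts of the set in every group except lung3, where Timp1 lay next to them. In lung3 cells Timp2 stood at 104 ± 1.80, Timp1 at 94.7 ± 5.81 and Mmp3 at 93.1 ± 27.4 CPM per kb (SD, n = 3, as in all such values). In wt cells Mmp3 had 116 ± 31.4, Timp2 111 ± 3.19 and Timp1 71.5 ± 9.84 CPM per kb. These neighbours differed by less than the spread of Mmp3, apart from Timp1 in wt cells. In MYBup cells Mmp3 reached 320 ± 32.7 CPM per kb, and in mock cells 406 ± 58.7 CPM per kb. Mmp14 and Adamts1 followed in wt cells with 26.6 ± 2.00 and 32.4 ± 2.11 CPM per kb, and Mmp10 with 11.5 ± 0.125 CPM per kb. By the length of the longest transcript Mmp14 lay above Adamts1 in wt cells, at 49.0 against 35.1 CPM per kb. Of the 9 tested genes the least abundant in wt were Mmp13, at 1.41 ± 0.449 CPM per kb, and Adamts4, at 0.569 ± 0.0931 CPM per kb.

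**Figure D1:**
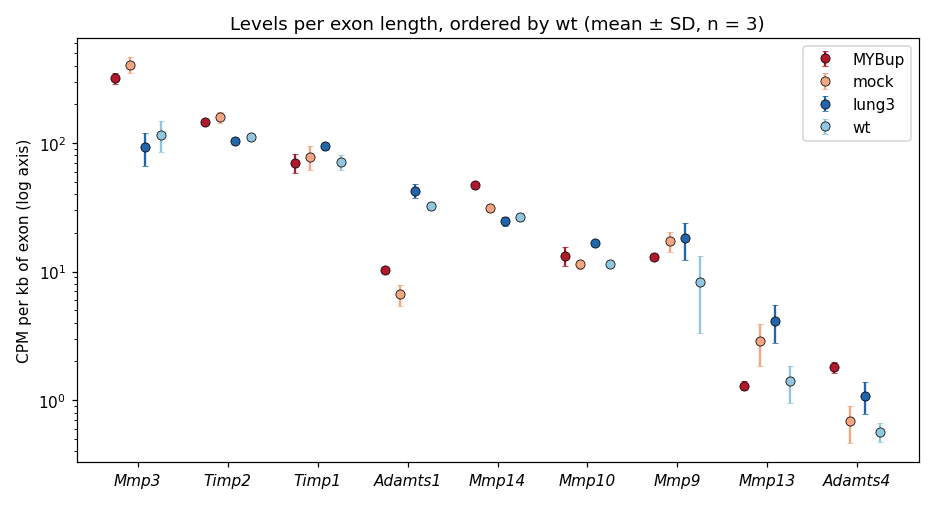
Mean level per exon length of the 9 tested genes (CPM per kb, log axis) in each group, ordered from left to right by the level in wt cells; bars are the SD of 3 libraries. Mmp3 ranges from 93.1 CPM per kb in lung3 to 406 CPM per kb in mock cells, and Adamts4 stays under 2 CPM per kb.

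The summed level of the 5 MMPs per merged exon length, most of it Mmp3 by that length, separated the transfected from the untransfected lines. It was 395 ± 35.2 CPM per kb in MYBup and 469 ± 60.2 CPM per kb in mock cells, and 157 ± 24.9 CPM per kb in lung3 and 164 ± 27.8 CPM per kb in wt cells. The summed level of the TIMPs varied less, with 216 ± 12.3 CPM per kb in MYBup, 237 ± 12.6 CPM per kb in mock, 199 ± 4.09 CPM per kb in lung3 and 183 ± 9.34 CPM per kb in wt cells. The ratio of MMP to TIMP transcripts was 1.80 to 1.90 in MYBup and 1.69 to 2.15 in mock libraries, and 0.710 to 0.911 in lung3 and 0.757 to 0.970 in wt libraries. Ranges of this ratio overlapped within each of these pairs. Those of the TIMP sum did not overlap between lung3 (195.3 to 203.3 CPM per kb) and wt libraries (176.0 to 193.6 CPM per kb). Mmp3 made up 80.3% to 82.1% of the MMP sum in MYBup and 85.4% to 88.1% in mock libraries, and 50.2% to 66.7% in lung3 and 61.0% to 75.9% in wt libraries. The part of Mmp14 in these sums depends on the length used. By the longest transcript it stood at 87.2 CPM per kb in MYBup, 57.8 in mock, 45.35 in lung3 and 49.0 in wt cells. Mmp3 kept its values. The sums, ratios and shares were not computed with that length. These sums are transcript levels and do not measure enzyme activity.

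**Figure D2:**
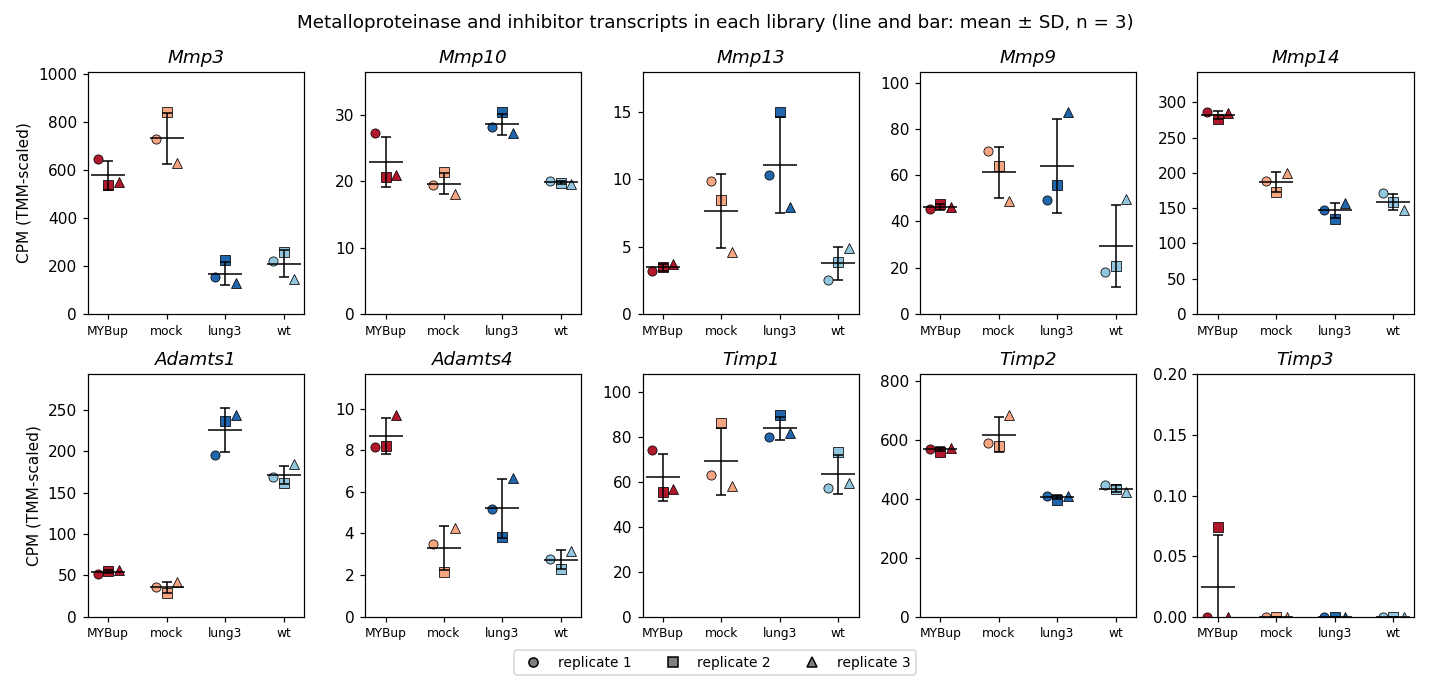
CPM of each of the 10 genes in every library, by group; symbols give the replicate number, the long line is the mean and the bars are ± SD (n = 3), and each panel has its own axis from 0. Mmp14 and Adamts4 lie higher in MYBup than in mock libraries, Mmp13 and Mmp10 higher in lung3 than in wt libraries, and Timp3 has a single read.

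The comparison of MYBup with mock cells asks which of these genes differ between the line that overexpresses Myb and the mock line. Mmp14, Adamts1 and Adamts4 were higher in MYBup cells, Mmp13 was lower, and the other 5 tested genes did not pass the test. Over all 11291 tested genes, 14.3% were called higher and 12.6% lower, 26.9% in all, and CPM ranges of the 2 groups did not overlap in 40.6% of genes and in 6 of the 9. The median log2 fold change of the 9 was -0.12, against 0.00 for all tested genes, and the median absolute value was 0.41, against 0.21. The calls of Mmp14, Adamts1 and Adamts4 held in each of 18 other fits.

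Mmp14 (ENSMUSG00000000957, chromosome 14, 54431612 to 54445364) encodes a membrane-type MMP that cuts collagen at the cell surface and activates the precursor of MMP2. It stood at 286, 276 and 285 CPM in MYBup replicates 1 to 3, against 188, 173 and 200 CPM in mock. All MYBup libraries lay above all mock libraries (log2 fold change 0.59, SE 0.08, adjusted p = 0.000181). Against wt cells, which had 147 to 171 CPM, the log2 fold change in MYBup was 0.83 (SE 0.08, adjusted p = 9.32e-06). Mmp14 was the only one of the 5 MMPs called higher in MYBup cells against both mock and wt cells. Mmp2, the gene of the gelatinase that MMP14 activates, was near 0, with 0.17 CPM in MYBup libraries and 0.09 CPM in mock ones, and was not tested.

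Adamts4 (chromosome 1, 171250421 to 171260637), an aggrecan-cutting proteinase, had 8.15, 8.21 and 9.71 CPM in MYBup libraries, against 3.51, 2.14 and 4.25 CPM in mock. The ranges were separate, and this was the largest rise of the set (1.39 on the log2 scale, SE 0.23, adjusted p = 0.000836). It was also higher in MYBup than in wt cells (1.67, SE 0.23, adjusted p = 0.000144). Part of its exon sequence is also annotated on the opposite strand, so, with the strand setting unknown, its counts are uncertain.

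Adamts1 (chromosome 16, 85793827 to 85803113), a proteinase of versican and aggrecan, was at 51.9, 55.1 and 55.7 CPM in MYBup libraries, against 35.4, 28.7 and 41.8 CPM in mock. The log2 fold change was 0.62 (SE 0.12, adjusted p = 0.00261). Both transfected lines nevertheless lay far below the untransfected ones. In wt libraries Adamts1 had 169, 162 and 184 CPM, so that MYBup was 3.16-fold lower than wt (log2 fold change -1.66, SE 0.12, adjusted p = 1.19e-06).

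Mmp13 (chromosome 9, 7272514 to 7283331), a collagenase of fibrillar collagen, had 3.18, 3.47 and 3.73 CPM in MYBup libraries, against 9.87, 8.48 and 4.58 CPM in mock. The ranges were separate, but mock replicate 3 was close to the MYBup libraries. The log2 fold change was -1.14 (SE 0.31, adjusted p = 0.0167), and without mock replicate 1 it was -0.90 and no longer called (adjusted p = 0.0864). Against wt cells, at 2.50 to 4.89 CPM, MYBup did not differ beyond the spread (-0.11, SE 0.33, adjusted p = 0.821).

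Mmp3 and Mmp10 encode the stromelysins, which cut proteoglycans, laminin and fibronectin and activate other MMP precursors. Mmp3 (chromosome 9, 7445822 to 7455975) had 644, 535 and 551 CPM in MYBup libraries, against 727, 840 and 629 CPM in mock, with overlapping ranges (log2 fold change -0.34, SE 0.21, adjusted p = 0.242). Mmp10 (chromosome 9, 7502352 to 7510240) had 27.3, 20.6 and 20.9 CPM in MYBup, against 19.4, 21.4 and 18.1 CPM in mock (0.22, SE 0.11, adjusted p = 0.165). Without MYBup replicate 1, the highest, the value was 0.07. Of the 50-base stretches of Mmp10 transcripts, 8.37% also occur in Mmp3 transcripts, so reads from these stretches could be assigned to either gene. As Mmp3 was far more abundant, the part of the Mmp10 counts open to this need not be small. Between mock and wt cells Mmp3 differed by 1.81 on the log2 scale and Mmp10 by -0.01 (SE 0.11, adjusted p = 0.939). The part of shared reads in the Mmp10 counts was not tested.

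The gelatinase gene Mmp9 (chromosome 2, 164940780 to 164955850), whose product cuts type IV collagen, had 45.2, 47.5 and 46.1 CPM in MYBup libraries. In mock it had 70.5, 64.1 and 49.0 CPM, all above MYBup, but the difference did not pass (log2 fold change -0.40, SE 0.31, adjusted p = 0.365). Timp1 (chromosome X, 20870166 to 20874735) ranged from 55.4 to 74.1 CPM in MYBup and from 58.4 to 86.2 CPM in mock libraries (-0.16, SE 0.15, adjusted p = 0.474). Timp2 (chromosome 11, 118301069 to 118355740), which inhibits MMPs and also takes part in the activation of MMP2 by MMP14, had 569, 560 and 574 CPM in MYBup, against 589, 580 and 685 CPM in mock. These ranges were separate by a narrow margin, and the log2 fold change of -0.12 (SE 0.07) did not pass (adjusted p = 0.238). Without mock replicate 3 it was -0.04.

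Timp3 (chromosome 10, 86300372 to 86349506), an inhibitor that binds to the matrix and also blocks ADAM and ADAMTS enzymes, was all but undetected. A single count (1) came from the MYBup libraries and 0 from mock, lung3 and wt. A count of 0 allows up to 0.0598 CPM over the mock libraries, 0.0800 CPM over lung3 and 0.0444 CPM over wt, from counting error alone with a floor of 3 counts per group. The low level was shared by all lines, so no comparison could be made. Its exons share 1733 bases with Syn3 on the opposite strand, which had 26 counts in MYBup and 3 counts in mock libraries.

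**Figure D3:**
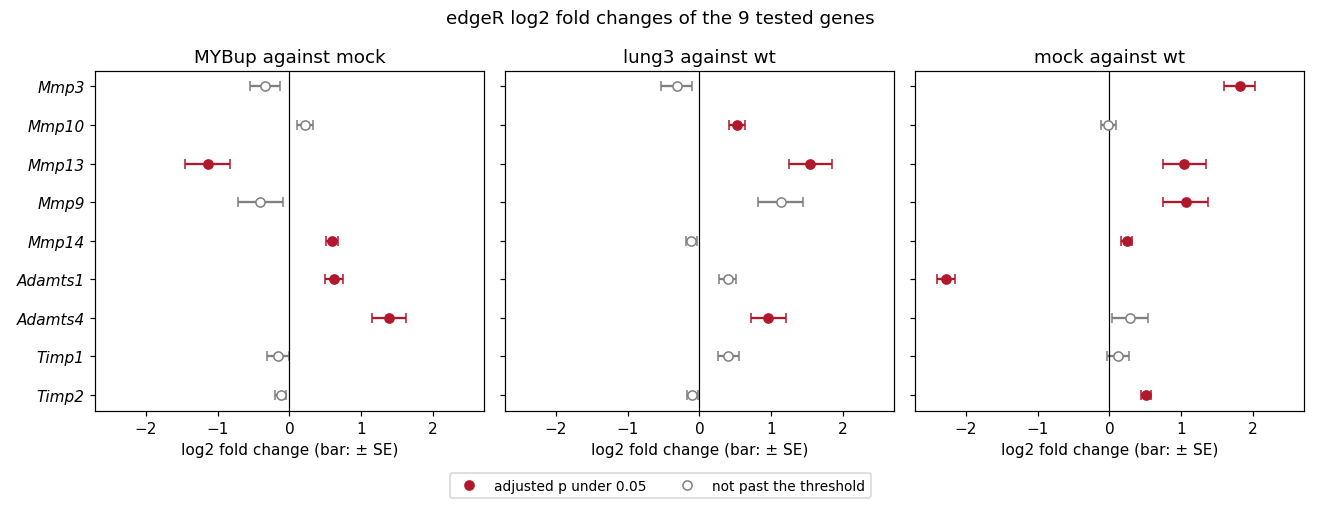
Log2 fold change of the 9 tested genes with its standard error in 3 comparisons, from the edgeR fit of all 12 libraries; filled points are past the threshold. The rise of Mmp14 and Adamts4 in MYBup, the rise of Mmp13 in lung3 and the opposite shifts of Mmp3 and Adamts1 in mock against wt stand out.

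The comparison of lung3 with wt cells asks what differs after passage through the lung. Mmp10, Mmp13 and Adamts4 were called higher in lung3 cells and 0 genes of the set were called lower, against 2.91% higher, 2.44% lower and 5.36% in all of the tested genes. The ranges of the 2 groups did not overlap for 6 of the 9, against 27.4% of all tested genes. At an unadjusted p under 0.05, edgeR found 6 higher and 0 lower, against 10.5% and 10.7% of all tested genes. DESeq2 and limma voom each called 4 higher and 0 lower, against 3.95% and 3.40% of genes with DESeq2 and 3.17% and 2.29% with voom. The median log2 fold change of the 9 was 0.40, against 0.00 for all tested genes. Libraries with the same replicate number deviated together in these 2 groups, though the labels state no pairing. This pairing was read from the same counts, so p-values with the replicate block are no separate support for a call. With the number as a block on the 6 libraries, 6 genes were higher and 1 lower, against 8.67% higher and 9.24% lower of the 11085 genes tested in that fit. The count without the block depended on single libraries. Without wt replicate 1 it was 0, and without wt replicate 2 or lung3 replicate 2 it was 1. Without mock replicate 2 it was 5. Calls over all genes moved the same way. From 329 higher they went to 134 without wt replicate 1 and 143 without wt replicate 2. They were 180 without lung3 replicate 2 and 469 without mock replicate 2.

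Mmp13 had the largest rise of the set, 2.90-fold. It stood at 10.3, 15 and 7.97 CPM in lung3 replicates 1 to 3, against 2.50, 3.88 and 4.89 CPM in wt. All lung3 libraries lay above all wt libraries, and the log2 fold change was 1.54 (SE 0.30, adjusted p = 0.0103). The call ended without wt replicate 1 (1.32, adjusted p = 0.0529) or lung3 replicate 2 (1.28, adjusted p = 0.0507). Within replicate numbers the log2 differences were 1.99, 1.92 and 0.69. With the replicate block Mmp13 was called as well (1.54, adjusted p = 8.68e-05).

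Mmp10 rose by less but with a narrow spread, at 28.1, 30.4 and 27.3 CPM in lung3 libraries, against 20, 19.8 and 19.6 CPM in wt. The log2 fold change was 0.53 (SE 0.11, adjusted p = 0.0142). Its adjusted p was 0.0561 without wt replicate 1, 0.0545 without wt replicate 2 and 0.0596 without lung3 replicate 2. With the replicate block Mmp10 was called as well (0.53, adjusted p = 0.000648). Mmp3, in the same cluster, had 154, 223 and 127 CPM in lung3 libraries, against 222, 257 and 146 CPM in wt. The ranges overlapped, and Mmp3 was not called (-0.32, SE 0.21, adjusted p = 0.421), but with the replicate block it was called lower (-0.32, adjusted p = 0.00654). Leaving out single libraries moved the value without the block between -0.57 and -0.14.

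Mmp9 had 49.2, 55.8 and 87.3 CPM in lung3 libraries, against 18.0, 20.6 and 49.6 CPM in wt. In both groups replicate 3 was the highest, and lung3 replicate 1 lay just below wt replicate 3. The log2 fold change was 1.13 (SE 0.32, adjusted p = 0.0553), just short of the threshold. With the replicate block it was 1.21 (adjusted p = 1.46e-06), and without wt replicate 3 it was 1.74 (adjusted p = 0.000804). Without mock replicate 2 it was also called (adjusted p = 0.0451). On all 12 libraries limma voom called it (1.26, adjusted p = 0.031), as did edgeR without the filter on low counts (adjusted p = 0.0122), but DESeq2 did not (0.0543). Leukocytes are a common source of Mmp9, and the leukocyte marker Cd68 was at 7.71 CPM in lung3 and 5.20 CPM in wt cells. Ptprc, the pan-leukocyte marker, was at 0.23 CPM in lung3 and 0.12 CPM in wt cells, and the granulocyte markers S100a8 and S100a9 at 0.23 and 0.00 CPM in lung3 and 0.15 and 0.00 CPM in wt cells. The part of such cells in the result was not tested.

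**Figure D4:**
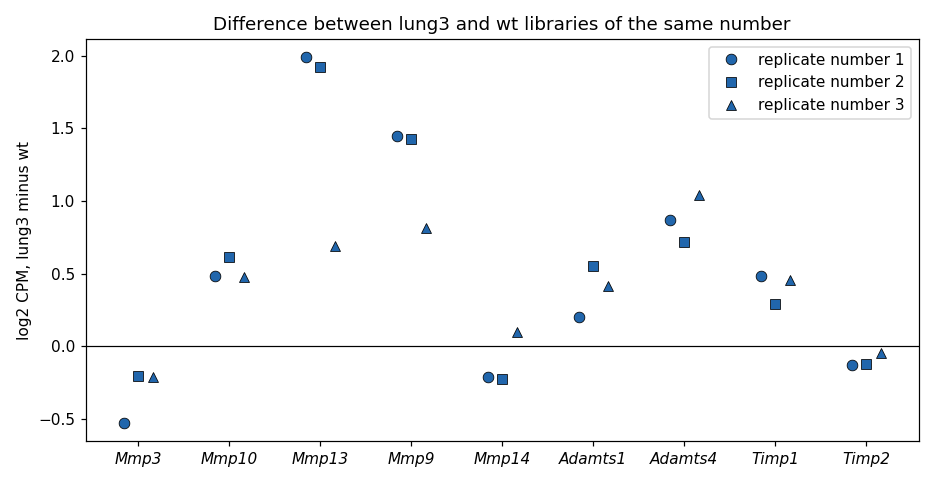
Difference in log2 CPM between the lung3 and the wt library of the same replicate number for the 9 tested genes; points above 0 are higher in lung3. Mmp10, Mmp13, Mmp9, Adamts1, Adamts4 and Timp1 lie above 0 at all 3 numbers, Mmp3 and Timp2 below it, and Mmp14 on both sides.

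Adamts4 had 5.17, 3.81 and 6.65 CPM in lung3 libraries, against 2.77, 2.27 and 3.16 CPM in wt (log2 fold change 0.96, SE 0.25, adjusted p = 0.0381). The ranges were separate, but the call ended without any one of wt replicates 1 and 2, lung3 replicates 1 and 3, mock replicate 1 and MYBup replicates 2 and 3. The adjusted p was then between 0.0554 and 0.159. With the replicate block Adamts4 was called (0.92, adjusted p = 0.00235). Adamts1 had 195, 237 and 244 CPM in lung3 libraries, against 169, 162 and 184 CPM in wt. Its ranges were separate too, and the log2 fold change of 0.39 (SE 0.12) missed the threshold (adjusted p = 0.0676). It was called with the replicate block (0.39, adjusted p = 0.00132), and also without mock replicate 2 (adjusted p = 0.0192), mock replicate 3 (0.0343) or lung3 replicate 1 (0.0434). DESeq2 called it too (adjusted p = 0.0277), as did edgeR without the filter on low counts (0.0411) and on the 6 libraries compared (0.0368). With limma voom (adjusted p = 0.0639) and RLE size factors (0.0668) it was not called.

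Among the inhibitors, Timp1 had 80.3, 90 and 82.1 CPM in lung3 libraries, against 57.3, 73.5 and 59.7 CPM in wt. Every lung3 library lay above every wt library, and the log2 fold change was 0.40 (SE 0.15, adjusted p = 0.142). It passed with the replicate block (0.41, adjusted p = 0.000728) and in the fit on the 6 libraries compared (adjusted p = 0.0415). Timp2 had 409, 397 and 410 CPM in lung3, against 448, 432 and 424 CPM in wt. This difference of -0.10 (SE 0.07) was not called (adjusted p = 0.484), although the ranges did not touch. Mmp14 had 148, 135 and 157 CPM in lung3, against 171, 158 and 147 CPM in wt, and was not called (-0.11, SE 0.08, adjusted p = 0.482).

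The 2 lines lie at opposite ends of lung activity, and their comparisons use separate libraries. The difference between the effects (MYBup against mock minus lung3 against wt) was tested in the same fit. It passed for 3 of 9 genes, 1 positive and 2 negative, against 19.9% of all tested genes (10.4% positive and 9.52% negative). For Mmp13, called lower in MYBup and higher in lung3, it was -2.68 (SE 0.43, adjusted p = 0.00103). For Mmp14, higher in MYBup and not called in lung3, it was 0.70 (SE 0.12, adjusted p = 0.00108). For Mmp9 it was -1.54 (SE 0.44, adjusted p = 0.0271), with neither effect called on its own. The Mmp9 call ended without mock replicate 1, MYBup replicate 2 or 3, wt replicate 1 or 2 or lung3 replicate 3, with an adjusted p between 0.0526 and 0.0733, and without wt replicate 3 the difference was -2.14. The leukocyte marker Cd68 was also called lower in this difference (-1.12, SE 0.31, adjusted p = 0.0219) and the fibroblast marker Pdgfra higher (0.69, SE 0.22, adjusted p = 0.0437). Their part in the differences of Mmp9, Mmp13 and Mmp14 was not tested. Without MYBup replicate 1 the count was 5, with Mmp10 (-0.45, adjusted p = 0.031) and Timp1 (-0.71, adjusted p = 0.028) added, and without mock replicate 3 Timp1 was also called (-0.66, adjusted p = 0.0418). Adamts4 was called higher in both comparisons, and its effects did not differ beyond their error (0.43, SE 0.34, adjusted p = 0.409). Myb itself was called higher in MYBup against mock (2.89, SE 0.15, adjusted p = 5.21e-08) and lower in lung3 against wt.

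Mock and wt cells both have a normal lung activity, yet 6 of the 9 genes differed between them, against 35.9% of all tested genes. In mock cells Mmp3, Mmp13, Mmp9, Mmp14 and Timp2 were higher and Adamts1 was lower, against 18.0% higher and 17.9% lower of all tested genes. Ranges did not overlap for 4 of the 9, against 46.9% of all tested genes. This comparison shares its mock libraries with one of the above and its wt libraries with the other. Mmp3 had 727, 840 and 629 CPM in mock libraries, against 222, 257 and 146 CPM in wt (log2 fold change 1.81, SE 0.21, adjusted p = 5.14e-05). Pdgfra, the one fibroblast marker above 1 CPM, was at 40.9 CPM in mock and 26.6 CPM in wt cells, while Lum, Thy1 and the collagen marker Col3a1 were at or near 0; its part in the result was not tested. Mmp3 was also higher in MYBup than in wt cells (1.47, SE 0.21, adjusted p = 0.000195), so its high level was shared by both transfected lines.

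Adamts1 showed the largest difference of the set here, with 35.4, 28.7 and 41.8 CPM in mock libraries, against 169, 162 and 184 CPM in wt, which is 4.85-fold lower (log2 fold change -2.28, SE 0.12, adjusted p = 2.23e-07). Timp2 was higher in mock by 0.51 (SE 0.07, adjusted p = 0.000214), and in MYBup against wt by 0.39 (SE 0.07, adjusted p = 0.00139). These calls of Mmp3, Adamts1 and Timp2 held in each of 18 other fits. The others were less firm. Mmp13 stood 1.04 higher on the log2 scale in mock against wt (SE 0.30, adjusted p = 0.0159), which was not called without mock replicate 1 (0.79, adjusted p = 0.0894) or wt replicate 1 (0.81, adjusted p = 0.0698). Mmp9 had 1.06 (SE 0.31, adjusted p = 0.018), with an adjusted p of 0.0656 without mock replicate 1, 0.075 without wt replicate 1 and 0.0779 without wt replicate 2, and a value of 1.67 without wt replicate 3. For Mmp14 the value was 0.24 (SE 0.08, adjusted p = 0.0357), and it was lost in the fit on the 6 libraries (adjusted p = 0.0813) and without any one of mock replicates 1 and 3, MYBup replicates 2 and 3 and wt replicates 2 and 3 (adjusted p up to 0.125).

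In MYBup against wt, 4 genes were higher (Mmp3, Mmp14, Adamts4 and Timp2) and 1 was lower (Adamts1), against 19.4% higher, 18.7% lower and 38.2% in all of the tested genes. Ranges did not overlap for 6 of the 9, against 55.6% of all tested genes. Mmp9 was not called there (0.66, SE 0.32, adjusted p = 0.115), but was without wt replicate 3 (1.27, adjusted p = 0.00116), while without wt replicate 1 its value was 0.40 (adjusted p = 0.352).

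In the chromosome 9 cluster, reads came from the stretch between Mmp13 and Mmp10, and almost none from the genes beyond it. In genome order the genes are Mmp13, Mmp12, Mmp1b, Mmp3, Mmp1a, Mmp10, Mmp8, Mmp27, Mmp20 and Mmp7. Mmp8, Mmp20 and Mmp7 had 0 counts in all 12 libraries, Mmp27 had 1, and Mmp12, the macrophage elastase gene, had 2 counts in MYBup, 1 in mock, 3 in lung3 and 4 in wt libraries. Mmp1b stayed at 3.35 ± 0.107 CPM in MYBup, 3.93 ± 0.108 CPM in mock, 3.45 ± 1.09 CPM in lung3 and 3.35 ± 0.657 CPM in wt cells; its exons share 157 bases with Mmp12. Mmp1a, a homologue of human interstitial collagenase that lies between Mmp3 and Mmp10, was higher in MYBup, at 5.37 ± 0.996 CPM, than in mock cells, at 2.91 ± 0.481 CPM (log2 fold change 0.87, SE 0.29, adjusted p = 0.0424). In lung3 cells it was at 1.12 ± 0.420 CPM, against 2.84 ± 1.18 CPM in wt, and was not called (-1.30, SE 0.36, adjusted p = 0.0539).

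**Figure D5:**
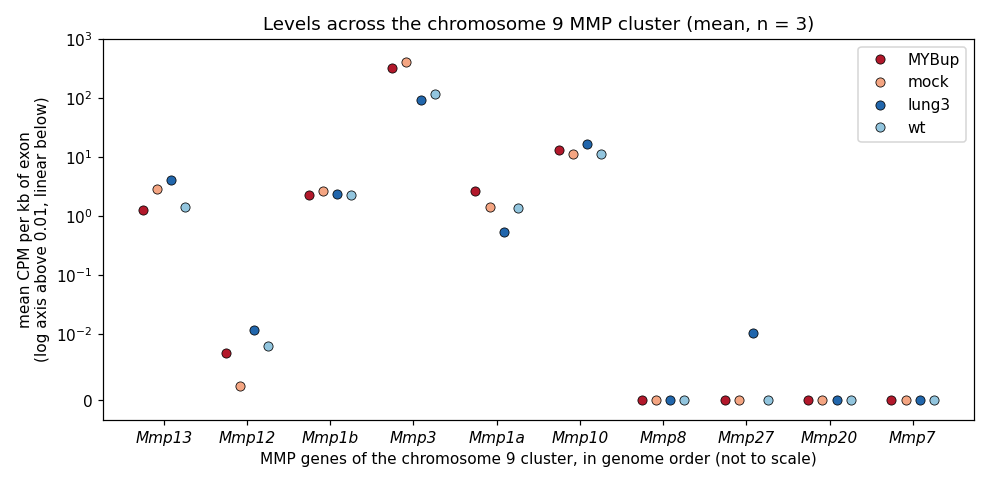
Mean level per exon length (CPM per kb, n = 3; logarithmic above 0.01 and linear below) of the 10 MMP genes of the chromosome 9 cluster, in genome order with equal spacing. Mmp3 is the highest in each group, Mmp10 next, and Mmp8, Mmp20 and Mmp7 are at 0.

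Of the 18 MMP genes outside the set, 6 were tested. In MYBup against mock, Mmp1a was higher and Mmp19 lower (-1.22, SE 0.30, adjusted p = 0.00976); Mmp19 is named after its value was seen, as its mean is under 1 CPM. In lung3 against wt, edgeR called 0 of the 6, with 1 higher and 1 lower at an unadjusted p under 0.05. DESeq2 called 1 lower and limma voom 0, and with the replicate block Mmp24, also named after its value was seen, was higher and Mmp1a lower. Of 22 other ADAMTS and ADAMTS-like genes, 9 were tested. Adamtsl4 (1.10, SE 0.14, adjusted p = 0.000113) and Adamts14, a procollagen proteinase (0.70, SE 0.15, adjusted p = 0.00343), rose in MYBup and none fell. In lung3 edgeR called 0 of the 9, with 0 higher and 3 lower at an unadjusted p under 0.05. DESeq2 called 1 lower, limma voom 0, and the replicate block 3 lower. Of all tested genes edgeR called 14.3% higher and 12.6% lower in MYBup against mock, and 2.91% and 2.44% in lung3 against wt. In lung3 against wt the shares at the unadjusted p were 10.5% and 10.7%, and those of DESeq2 3.95% and 3.40%. With limma voom they were 3.17% and 2.29%, and with the block 8.67% and 9.24%.

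The membrane-bound ADAM enzymes shed the outer parts of surface proteins, and 7 of 10 were tested. Adam12 fell in MYBup (-1.21, SE 0.18, adjusted p = 0.000291) and rose in lung3 cells (1.04, SE 0.15, adjusted p = 0.00204), while Adam15 rose in MYBup (0.82, SE 0.10, adjusted p = 8.67e-05). With the replicate block the count in lung3 was 3 higher and 1 lower in place of 1 and 0. At an unadjusted p under 0.05 edgeR also gave 3 higher and 1 lower. DESeq2 called 3 higher and 0 lower, and limma voom 1 higher and 0 lower. Of 13 further inhibitors, activators and receptors of metalloproteinases, 7 were tested. Reck, a membrane-anchored MMP inhibitor, rose in MYBup by 0.56 (SE 0.15, adjusted p = 0.0167). Bsg, which encodes the MMP inducer basigin, rose by 0.46, and Pcsk6, a proprotein convertase, by 0.64. Furin, a convertase that activates MMP14, fell by 0.37 (adjusted p = 0.0402). In lung3 edgeR called 0 of these 7, with 2 higher and 1 lower at an unadjusted p under 0.05. DESeq2 called 1 higher, limma voom 0, and the replicate block 2 higher and 1 lower. The edgeR shares over all tested genes were 14.3% higher and 12.6% lower in MYBup against mock, and 2.91% and 2.44% in lung3 against wt. For lung3 against wt they were 10.5% and 10.7% at the unadjusted p, and 3.95% and 3.40% with DESeq2. With limma voom they were 3.17% and 2.29%, and with the replicate block 8.67% and 9.24%.

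The plasminogen system feeds the same cascade, since plasmin activates several MMP precursors. Plat, which encodes tissue plasminogen activator, rose in MYBup by 2.02 (SE 0.13, adjusted p = 3.12e-07) and in lung3 by 0.73 (SE 0.12, adjusted p = 0.00361). Plaur, the gene of the urokinase receptor, fell in MYBup (-0.44, adjusted p = 0.00427). Of 17 genes of AP-1, ETS, RUNX, C/EBP and NF-kB factors, families known to bind MMP promoters, all were tested. Fos (1.18, SE 0.31, adjusted p = 0.0136) and Nfkb1 (0.21) rose in MYBup and Etv5 fell (-0.34). In lung3 Ets2 rose (0.56, SE 0.11, adjusted p = 0.0102) and Fosl1 and Etv5 fell (-0.49 and -0.32). With the replicate block 4 were higher and 6 lower, against 8.67% and 9.24% of all genes tested in that fit. Without it, edgeR called 14.3% of all tested genes higher and 12.6% lower in MYBup against mock. In lung3 against wt these shares were 2.91% and 2.44%.

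Of 20 matrix genes whose products these enzymes can cut, 11 were tested. In MYBup 4 rose and 1 fell, against 14.3% higher and 12.6% lower of all tested genes. Those that rose were Tnc (0.57, SE 0.20, adjusted p = 0.0462; named after its value was seen), the type IV collagen genes Col4a2 (0.86, SE 0.13, adjusted p = 0.000318) and Col4a1 (0.81, SE 0.13, adjusted p = 0.000719) and Col6a1 (0.74), and Nid1 fell (-1.28, SE 0.33, adjusted p = 0.0109). In lung3 the laminin genes Lama3 (0.95, SE 0.22, adjusted p = 0.0226) and Lamb3 (0.47, SE 0.10, adjusted p = 0.0129) rose and 0 fell, against 2.91% higher and 2.44% lower of all tested genes. The median log2 fold change of the list was 0.22 in MYBup and 0.18 in lung3, against 0.00 for all tested genes in both. Exons of Mmp19, Mmp24, Adam15, Furin, Fosl1, Tnc, Col4a1, Col4a2, Nid1, Lama3, Krt7, Krt8 and Pdgfra overlap annotation on the opposite strand. The strand setting is unknown. Exons of Pcsk6, Pdgfra and Col3a1 overlap other annotation on the same strand. These counts are uncertain.

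Genes of like pattern were sought for the 5 members whose highest and lowest group means differed at least 2-fold, among 10787 other genes over the 12 libraries. Likeness was the root mean square difference of log2 CPM after centring each gene on its mean. For Mmp3 the nearest were Trib2 (0.32) and Snn (0.36), for Mmp13 Il18rap (0.32) and Ptpn22 (0.33), and for Mmp9 Slco1a5 (0.21) and Cp (0.22). For Adamts1 they were Ccnb1ip1 (0.27) and Kcnk6 (0.29), and for Adamts4 Dact2 (0.27) and Lrp4 (0.32). Trib2, for instance, averaged 36.1 CPM in MYBup, 46.0 CPM in mock, 12.9 CPM in lung3 and 18.5 CPM in wt cells, the same order of groups as Mmp3. No member appeared among the nearest genes of another.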

How the data were processed

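The deposited table holds raw counts of reads per gene for 12 libraries, which the authors did not normalise. RNA came from a column kit and libraries from a TruSeq RNA kit, per the labels' protocols. The submitters' processing notes name STAR, edgeR and GRCm38; for the counting tool, annotation and strand setting the sources used here give nothing. Values of more than 4 digits carry 4 significant digits. It has 0 columns that were not used. Symbols, coordinates (1-based) and exon lengths are those of GENCODE M21 on GRCm38.

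Tests used R 4.3.3 with edgeR 4.0.16 (TMM factors, filterByExpr). The quasi-likelihood test was fitted to all 12 libraries with group terms, with Benjamini-Hochberg adjustment over 11291 genes. The SE was taken as the absolute log2 fold change over the root of F. The script was tested on simulated data. Replicates differed by more than sampling noise (chi-square per gene 2.29 to 37.3). Floors reflect counting error alone, as reads lack molecular identifiers.

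Deviations from group means correlated at 0.329, 0.294 and 0.309 for lung3 and wt libraries of the same number. For unlike numbers they correlated at -0.212 to -0.093, and centring on group means lowers these values where same-number ones are high. On this the numbers were taken to pair these libraries, though the labels state no pairing. The pairing was thus read from the same counts that the block tests, so the block's p-values are no separate support. For MYBup and mock the same-number values were -0.191, -0.496 and 0.382, and those of unlike numbers reached 0.636. Alternatives were RLE size factors, no filter, DESeq2 1.42.0, limma 3.58.1 voom, the 6 libraries compared, a replicate block, leaving out each library, and, for levels, the longest transcript's length.

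All 10 members were named. Other listed genes were named up to 4 per list and comparison, by the largest called change with a mean of at least 1 CPM. Mmp19, Mmp24 and Tnc fall outside this rule. For the plasminogen system, 1 gene taken by this rule and the list's counts are not reported here. Members and lists were chosen with earlier results of these data known. Figures used Python 3.11.15 with matplotlib 3.10.9.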

Additional observations from a re-analysis of the deposited data

How the results depend on the processing

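Of 801 refits of the members' log2 fold changes, 734 kept both direction and side of the threshold, 33 lost a call, 21 gained one and 13 changed sign. The sign changes came from leaving out 1 library and concerned values never called. Their leave-one-out ranges were -0.21 to 0.23 for the difference of effects of Mmp3, -0.069 to 0.060 for that of Timp2, -0.066 to 0.038 for Mmp10 in mock against wt and -0.33 to 0.12 for Mmp13 in MYBup against wt. For Timp1 they were -0.31 to 0.027 in MYBup against mock, -0.054 to 0.24 in mock against wt and -0.18 to 0.088 in MYBup against wt.

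The count of members higher in lung3 against wt was 3, but 5 without the filter on low counts and 5 in the fit on the 6 libraries compared. It was 6 with the replicate block, and 0 to 5 leaving out 1 library. Over all genes it was 329 of 11291 tested, and 378 of 15544 without the filter. On the 6 libraries it was 356 of 11085, with the block 961 of 11085, and leaving out 1 library 134 to 469. The count of members lower in lung3 against wt was 0, and 1 with the replicate block. Leaving out 1 library gave 0 to 1 members lower in MYBup against mock, against 964 to 1688 of all genes. In mock against wt it gave 2 to 5 higher, against 1573 to 2113 of all genes. For the difference of effects it gave 2 to 5 members, against 804 to 1260 genes positive and 726 to 1240 negative. For MYBup against mock, whose numbers were not taken to pair the libraries, the replicate block left 3 members higher and 1 lower. Mock and wt share only a number; there the block gave 3 higher in place of 5 and ended the calls of Mmp13 (adjusted p = 0.0517) and Mmp14 (adjusted p = 0.0928). In MYBup against wt it added Mmp9 (0.78, adjusted p = 0.0311), as did limma voom (0.82, adjusted p = 0.0493). It changed no other call there or in the difference of effects. In lung3 against wt every library correlated best with its own number, which was not so for MYBup and mock. The block also moved the count over all genes, to 788 higher and 691 lower from 1615 and 1423 in MYBup against mock. In lung3 against wt it moved to 961 and 1024 from 329 and 276, and in mock against wt to 1667 and 1694 from 2038 and 2018. In MYBup against wt it moved to 2245 and 2343 from 2191 and 2117. The causes were not tested. Few counts limit Mmp13 and Adamts4, with as few as 39 and 30 counts in a library.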
